A study of Mus musculus with 8 samples.

Results

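Mast cell and basophil lineage genes were followed across 8 mouse stem cell arrays. The genes were Fcer1a, Ms4a2, Cpa3, Hdc, Gzmb, Mcpt8 and Prg2, taken as every probe set that the platform annotation assigns to 1 of these symbols. They came to 9 probe sets of 7 genes, of 45037 probe sets and 18193 genes in all. The arrays asked how loss of the zinc finger transcription factor Zfx alters expression in stem cells of the blood and of the embryo. HSC Zfx-cko cells came from Mx1-Cre+ Zfxflox/y mice, in which an interferon-inducible promoter drives Cre, and HSC Zfx-flox cells came from Cre-negative Zfxflox/y littermates. Both received pI·C, an inducer of interferon, so both were exposed to it while Cre was present in HSC Zfx-cko cells alone. Marrow of 4 to 6 mice was pooled 4 days after the last injection, and 50000 Lin- Sca-1+ c-Kit+ cells were sorted per sample, a gate that holds multipotent progenitors beside stem cells. ESC Zfx-null and ESC Zfx-flox were clones of embryonic stem cells grown on gelatin with serum replacement and LIF, carrying a deleted or a loxP-flanked Zfx gene. No source used here gives the ages of the mice or the number of ESC clones. Each group had 2 arrays, and the design text describes duplicate hybridization, so both arrays of a group may share an RNA sample. Every p-value thus reflects the spread between these arrays alone, and that spread may be technical.

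Mast cells and basophils carry the high-affinity IgE receptor, whose alpha chain binds IgE, whose beta chain amplifies the signal and whose gamma chains are shared with other Fc receptors. Allergen that crosslinks bound IgE makes these cells release granules that hold histamine, proteases and proteoglycan, and then produce lipid mediators and cytokines. In marrow their precursors descend from stem cells through progenitors that also give rise to erythroid cells, megakaryocytes and eosinophils, and some of their genes, Cpa3 among them, are already transcribed in early progenitors.

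In HSC, 4 of the 7 genes were higher in Zfx-cko than in Zfx-flox and 0 were lower. They were Fcer1a, the IgE-binding receptor chain, Cpa3, the mast cell carboxypeptidase, Hdc, the enzyme that makes histamine, and Prg2, the eosinophil granule major basic protein. Their fitted changes lay between 1.57-fold for Hdc and 2.29-fold for Cpa3. Ms4a2, Gzmb and Mcpt8 did not pass an adjusted p of 0.05 (limma with Benjamini-Hochberg adjustment over all tested probe sets). Calls were common in this comparison: of 12631 genes tested, 26.8% had a higher and 23.2% a lower probe set. Per probe set, 21.7% were higher and 16.0% lower, so higher probe sets made up 57.5% of the calls, and 47.4% when the arrays were centred on their medians. The median change of the 8 tested member probe sets was 0.53 on the log2 scale, against 0.06 over all tested probe sets. The members were chosen with earlier results of these data known. Their count and median therefore describe them, and the distance from the background is no test of the set. When the arrays were centred on their medians, the median over all tested probe sets was -0.04. The member changes were lower then too, between -0.16 for Ms4a2 1421475_at and 1.10 for Cpa3. The arrays read RNA of a sorted population, so fewer cells of a type and less RNA per cell cannot be told apart.

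Every value here is a deposited probe set signal on a linear scale, which the authors scaled so that the trimmed mean was 250 on each array. Fold changes are differences of log2(signal + 14.2), with their standard error (SE), and this pseudocount understates the change of dim probe sets. A probe set was tested in a cell type only if its mean log2 value there reached the 40th percentile. In HSC 8 of the 9 member probe sets did, covering all 7 genes, and in ESC 0 did. Median signals ran between 38.4 and 66.5 per array, and same-group arrays correlated at r = 0.980 to 0.987 across probe sets on the log2 scale. Zfx itself has 4 probe sets, and most were not lower in the arrays labelled as deleted. Only 1419565_a_at, and only in HSC, was lower on both of those arrays. In HSC, 1425972_a_at read 1192 and 1209 in Zfx-cko and 696 and 752 in Zfx-flox, and 1419565_a_at read 97.4 and 84.7 in Zfx-cko and 109 and 162 in Zfx-flox. The other pair lay low in HSC, with 36.8 and 29.7 in Zfx-cko and 28.9 and 34.3 in Zfx-flox on 1428046_a_at, and 24.9 and 18.9 in Zfx-cko and 4.32 and 9.95 in Zfx-flox on 1449512_a_at. The log2 change in HSC was 0.72 on 1425972_a_at (limma adjusted p = 0.000736) and -0.49 on 1419565_a_at (0.0958). In ESC all 4 were higher in the arrays labelled Zfx-null, by 0.79 to 1.65 on the log2 scale (adjusted p 0.000261 to 0.00156), which goes against that label if the probes read the deleted exons. On 1425972_a_at they read 477 and 547 in ESC Zfx-null and 262 and 318 in ESC Zfx-flox. No source used here places the probe sets inside or outside those exons, so the arrays are called by their labels and every direction rests on them.

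The start regions of Ms4a2 and of 3 of the 4 called genes are shown first, because they hold short words of the kind read by the GATA factors that act in mast cells and basophils. RefSeq windows of 300 bases, 250 before and 50 after the gene start, were found for 6 of the 7 genes on build GRCm38.p6, and Prg2 is named only. All 6 lie on the minus strand and are given 5′ to 3′ on it. Those of Fcer1a (chr1:173227180-173227479), Ms4a2 (chr19:11623670-11623969), Cpa3 (chr3:20242132-20242431) and Hdc (chr2:126618629-126618928) follow, with capitals marking AGATAA or TGATAA or AGATAG or TGATAG on either strand.
Fcer1a: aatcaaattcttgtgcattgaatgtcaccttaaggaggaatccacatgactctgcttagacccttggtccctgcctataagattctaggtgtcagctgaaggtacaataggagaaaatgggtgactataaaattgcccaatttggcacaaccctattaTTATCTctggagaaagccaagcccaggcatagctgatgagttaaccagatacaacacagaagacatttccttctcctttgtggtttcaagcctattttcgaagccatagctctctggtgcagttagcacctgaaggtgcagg
Ms4a2: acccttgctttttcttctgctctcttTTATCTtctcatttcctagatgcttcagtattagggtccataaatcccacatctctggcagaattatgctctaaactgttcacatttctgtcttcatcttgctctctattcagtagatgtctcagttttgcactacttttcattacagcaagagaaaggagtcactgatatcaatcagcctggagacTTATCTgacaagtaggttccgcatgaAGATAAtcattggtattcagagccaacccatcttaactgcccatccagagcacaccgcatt
Cpa3: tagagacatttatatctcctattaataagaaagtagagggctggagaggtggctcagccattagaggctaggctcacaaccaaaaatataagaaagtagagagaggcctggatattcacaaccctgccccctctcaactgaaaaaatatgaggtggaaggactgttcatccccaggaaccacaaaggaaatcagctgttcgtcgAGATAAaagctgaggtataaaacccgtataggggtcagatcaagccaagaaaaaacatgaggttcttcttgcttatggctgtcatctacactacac
Hdc: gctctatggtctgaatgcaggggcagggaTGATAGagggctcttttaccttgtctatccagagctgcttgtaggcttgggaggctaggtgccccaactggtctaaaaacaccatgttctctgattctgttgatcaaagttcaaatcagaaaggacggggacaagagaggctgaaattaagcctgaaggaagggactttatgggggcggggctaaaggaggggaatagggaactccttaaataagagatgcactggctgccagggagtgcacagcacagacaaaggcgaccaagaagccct
One of these GATA words stood in 4 of the 6 member windows, against 29.8% of 32851 RefSeq windows of the same length. Counting from the start of the gene to the leftmost base of the word, Fcer1a had 1 at -92, Cpa3 1 at -46 and Hdc 1 at -221. Ms4a2, which did not pass the test, held 3, at -224, -37 and -11. Gzmb (chr14:56262285-56262584) and Mcpt8 (chr14:56085148-56085447) held 0 of these words. The RUNX words TGTGGT and TGCGGT stood in 5 of the 6 windows, against 22.4% of all windows. The core word AGGCCT of the Zfx motif stood in 2 of the 6, those of Cpa3 and Mcpt8, against 10.3% of all windows. GAGGAA, the PU.1 word, stood in 2 of 6 against 28.3%, and CACGTG or CATGTG, words read by MITF, stood in 1 of 6 against 20.4%. All words were searched on both strands, and no hit overlapped a hit of another motif. A match describes letters in these windows and was not tested as a binding site.

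Fcer1a encodes the chain of the receptor that binds IgE. Its probe set 1421775_at read 249 and 264.8 in the HSC Zfx-cko arrays and 107.6 and 102.9 in the HSC Zfx-flox arrays. Both Zfx-cko arrays lay above both Zfx-flox arrays, and the gap between the groups was many times the gap within either. The means were 257 ± 11.2 in Zfx-cko and 105 ± 3.34 in Zfx-flox (SD, n = 2 each). The fitted log2 change was 1.18 ± 0.20 (SE, 95% interval 0.74 to 1.63), a 2.27-fold difference with a limma adjusted p of 0.00133. The call held under all 20 alternative settings. On the array as a whole the probe set stood at the 77.1 and 78.0 percentile in Zfx-cko and at the 67.0 percentile on both Zfx-flox arrays.

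Ms4a2 encodes the beta chain, which amplifies the receptor's signal, and it has a pair of probe sets. Probe set 1443264_at read 456.4 and 420.8 in HSC Zfx-cko and 422.5 and 403.8 in HSC Zfx-flox. Probe set 1421475_at read 88.4 and 71.5 in HSC Zfx-cko and 71.2 and 98.2 in HSC Zfx-flox. In both, the arrays of the groups overlapped. The log2 changes were 0.08 ± 0.32 (95% interval -0.64 to 0.81, adjusted p = 0.871) and -0.06 ± 0.33 (95% interval -0.82 to 0.69, adjusted p = 0.907) in limma. These intervals hold changes of over 1.5-fold either way. Whether the changes of Fcer1a and Ms4a2 differ was not tested.

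Cpa3, the carboxypeptidase of mast cell granules, had a signal of 2399 and 2644 on probe set 1448730_at in HSC Zfx-cko and 1083 and 1097 in HSC Zfx-flox. The groups did not overlap, and the Zfx-flox arrays lay close together. Means were 2521 ± 173 in Zfx-cko and 1090 ± 9.92 in Zfx-flox (SD, n = 2 each). The log2 change of 1.20 ± 0.29 (SE, 95% interval 0.53 to 1.86) had an adjusted p of 0.0108 in limma and held in 16 of 20 alternatives. The adjusted p was 0.0684 without HSC Zfx-cko replicate 2, 0.0554 without HSC Zfx-flox replicate 1 and 0.0543 without HSC Zfx-flox replicate 2, and 0.0538 with no pseudocount.

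Hdc, histidine decarboxylase, is the only enzyme of mammals known to make histamine. Probe set 1454713_s_at read 1100.2 and 1101 in HSC Zfx-cko and 674.8 and 718.7 in HSC Zfx-flox. The groups were apart, with the Zfx-cko arrays nearly equal. Means were 1101 ± 0.552 in Zfx-cko and 697 ± 31.1 in Zfx-flox (SD, n = 2 each), and the log2 change was 0.65 ± 0.18 (SE, 95% interval 0.23 to 1.06) with a limma adjusted p of 0.0206. It held in 14 of 20 alternatives. Leaving out any 1 HSC array ended the call, with adjusted p between 0.0802 and 0.116, as did the pseudocount at the 10th percentile (0.113) and no pseudocount (0.2502). The other Hdc probe set, 1451796_s_at, was near the floor with 13.6 and 9.03 in HSC Zfx-cko and 6.07 and 6.53 in HSC Zfx-flox, and it was not tested.

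Prg2 encodes major basic protein, the main cationic protein of eosinophil granules. Its probe set 1422873_at, the dimmest of the called members, read 93.9 and 73.6 in HSC Zfx-cko and 27.1 and 36.0 in HSC Zfx-flox. Zfx-cko arrays were above both Zfx-flox arrays, which were just above the filter at a signal of 25.4. Means were 83.8 ± 14.4 in Zfx-cko and 31.6 ± 6.28 in Zfx-flox (SD, n = 2 each), and the log2 change was 1.10 ± 0.34 (SE, 95% interval 0.34 to 1.86) with a limma adjusted p of 0.0295. It held in 12 of 19 alternatives. Without 1 HSC array at a time the adjusted p was 0.0686 to 0.155, it was 0.0735 with the pseudocount at the 10th percentile and 0.123 with none, and without a filter on dim probe sets it was 0.0601. Prg2 was below the stricter filter at the 60th percentile and could not be fitted there.

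Mcpt8, a serine protease of mouse basophils, read 364.7 and 313 on probe set 1449965_at in HSC Zfx-cko and 220.4 and 283.3 in HSC Zfx-flox. The groups did not overlap, but the gap between their nearest arrays was smaller than the gap within either group. The log2 change was 0.41 ± 0.29 (SE, 95% interval -0.23 to 1.06, limma adjusted p = 0.299). With the HSC arrays fitted alone it was 0.41 ± 0.14 with an adjusted p of 0.0457. Gzmb, the granzyme of cytotoxic lymphocytes that mouse mast cells also make, read 246.6 and 267.5 on probe set 1419060_at in HSC Zfx-cko and 240.9 and 223.5 in HSC Zfx-flox. The groups were adjacent without overlap, and the log2 change was 0.14 ± 0.27 (95% interval -0.48 to 0.76, limma adjusted p = 0.737). With the HSC arrays fitted alone the Gzmb change was 0.14 ± 0.10 (limma adjusted p = 0.318). In all, 6 of the 8 tested probe sets were higher on both Zfx-cko arrays than on both Zfx-flox arrays, against 40.3% of the 27022 probe sets tested (and 30.1% with every Zfx-cko array lower). Ranked by signed log2 change, from the strongest fall to the strongest rise, Cpa3 stood at the 95.8, Fcer1a at the 95.6, Prg2 at the 94.5 and Hdc at the 84.6 percentile of all tested probe sets. Mcpt8 stood at the 74.6 and Gzmb at the 56.3, while the Ms4a2 probe sets stood at the 51.8 and 39.6 percentile. Since the members were chosen with earlier results of these data known, these shares and ranks are a description only.

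**Figure D1:**
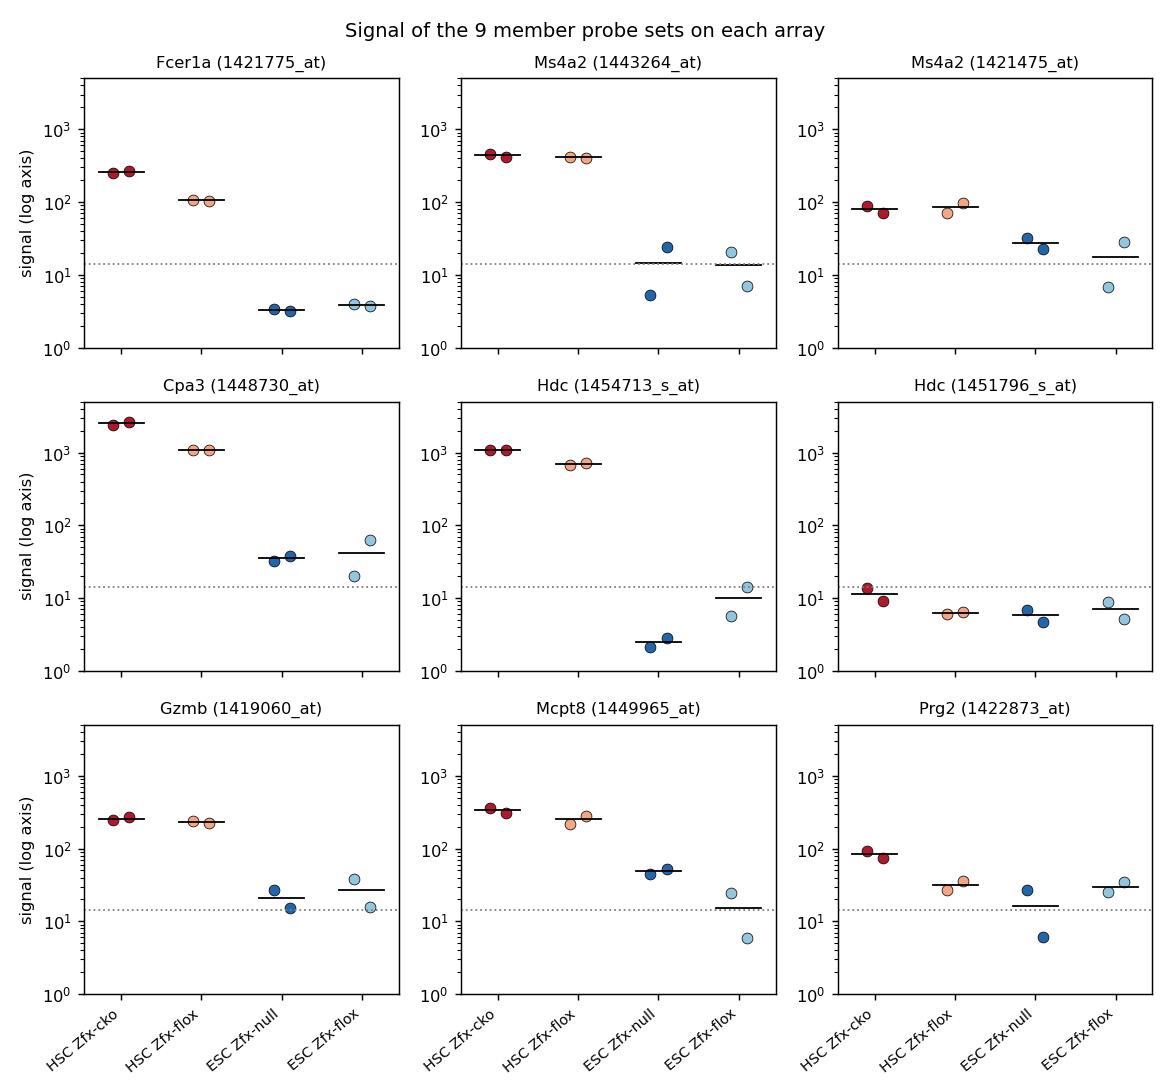
Signal of each member probe set on each of the 8 arrays (log axis), with HSC Zfx-cko left of HSC Zfx-flox and ESC Zfx-null left of ESC Zfx-flox a line at each group mean and a dotted line at the pseudocount. Fcer1a, Cpa3, Hdc (1454713_s_at) and Prg2 have both HSC Zfx-cko arrays well above both HSC Zfx-flox arrays, the Ms4a2 arrays overlap, and most ESC values lie low.

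**Figure D2:**
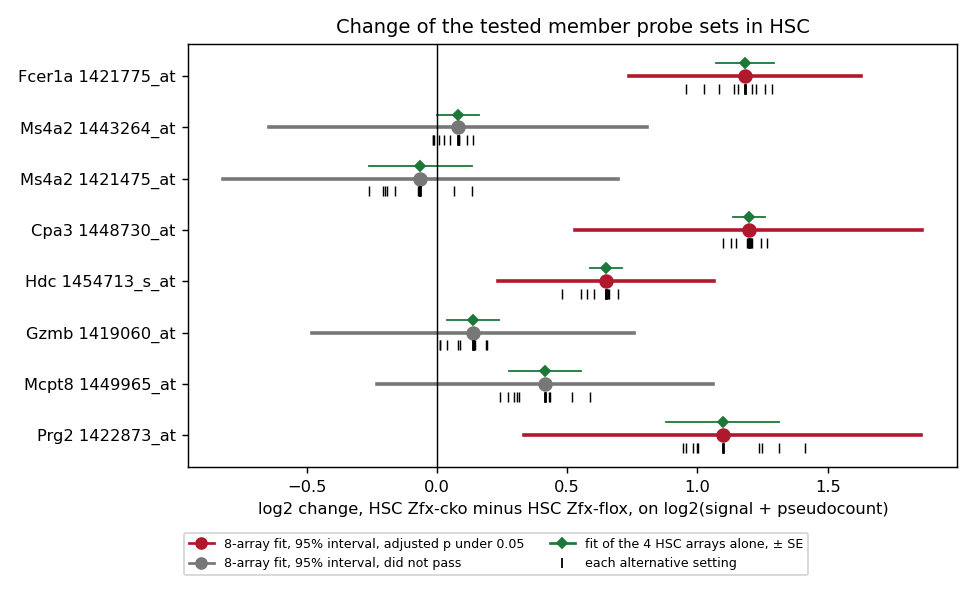
Fitted log2 change in HSC (Zfx-cko minus Zfx-flox) for each tested member probe set, as circles with 95% intervals in the fit of 8 arrays (red where the adjusted p was under 0.05). Diamonds with bars of 1 SE are the fit of the 4 HSC arrays alone, and ticks are the values of the alternative settings. The intervals of Fcer1a, Cpa3, Hdc and Prg2 lie above 0, and those of Mcpt8, Gzmb and both Ms4a2 probe sets hold 0.

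Embryonic stem cells, which do not make these granule and receptor proteins, gave a view of the floor. On 7 of the 9 probe sets, every HSC array was above every ESC array, the exceptions being Prg2 and Hdc 1451796_s_at. Fcer1a read 3.41 and 3.20 in ESC Zfx-null and 3.94 and 3.77 in ESC Zfx-flox, and Cpa3 read 32.5 and 38.3 in ESC Zfx-null and 20.1 and 62.9 in ESC Zfx-flox. Of the 36 ESC values of the members, 16 were below 14.2, the pseudocount. Prg2 read 26.6 and 6.05 in ESC Zfx-null and 25.4 and 34.4 in ESC Zfx-flox, so its HSC Zfx-flox arrays (27.1 and 36.0) overlapped the ESC range. Serine proteases were low as well. Gzmb had 26.7 and 15.4 in ESC Zfx-null and 38.7 and 15.7 in ESC Zfx-flox, and Mcpt8 had 44.6 and 52.9 in ESC Zfx-null and 24.6 and 5.95 in ESC Zfx-flox. For Ms4a2, probe set 1443264_at had 5.30 and 24.0 in ESC Zfx-null and 20.5 and 6.96 in ESC Zfx-flox, and 1421475_at had 32.1 and 22.5 in ESC Zfx-null and 6.90 and 28.2 in ESC Zfx-flox. Hdc 1454713_s_at had 2.09 and 2.87 in ESC Zfx-null and 5.72 and 14.3 in ESC Zfx-flox, and 1451796_s_at had 6.88 and 4.76 in ESC Zfx-null and 8.94 and 5.21 in ESC Zfx-flox. The ESC groups overlapped on 6 of the 9 probe sets. On the others, Mcpt8 was higher and Fcer1a and Hdc 1454713_s_at lower on both ESC Zfx-null arrays, all at these low signals. Over all 45037 probe sets without a filter, 22.9% were higher and 28.3% lower on both ESC Zfx-null arrays than on both ESC Zfx-flox arrays. HSC and ESC RNA went through different numbers of amplification rounds (2 and 1), so cell type and amplification cannot be told apart in these levels. No member was tested in ESC or for a difference between the HSC and ESC effects, since all were below the ESC filter. Among the genes that were, 16.9% had a higher and 17.0% a lower probe set in ESC Zfx-null, and the HSC effect was above the ESC effect for 21.8% and below it for 20.8%. The fit pools the spread over all 8 arrays. Some members scatter in ESC, as Cpa3 did in ESC Zfx-flox, while the ESC values of Fcer1a lay close together. A fit of the HSC arrays alone leaves out that spread but has fewer residual degrees of freedom. Why its SE were smaller was not tested. With the HSC arrays alone the SE of Fcer1a was 0.11, that of Cpa3 0.061, of Hdc 0.062 and of Prg2 0.22, and the adjusted p were 0.000177, 1.21e-05, 0.000172 and 0.00559 in that order.

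The genes around the members were read from 6 lists that hold none of the 7. Their counts stand beside the shares over all 12631 tested genes, of which 26.8% had a higher and 23.2% a lower probe set. The lists were chosen with earlier results of these data known, so a count above these shares is a description and no test. Among 18 tested genes of IgE receptor signalling, 11 were higher in HSC Zfx-cko, 1 was lower and 6 did not pass, with a median log2 change of 0.53. Over the alternatives 7 to 13 were higher, with 7 without HSC Zfx-cko replicate 1, and 0 to 1 lower, with 0 without either HSC Zfx-flox array. Fcer1g, the receptor's gamma chain, read 341 and 324 in HSC Zfx-cko and 132 and 125 in HSC Zfx-flox. It had no overlap between groups and rose by 1.28 ± 0.18 (limma adjusted p = 0.00043). Plcg2, a phospholipase that the receptor's kinases activate, read 1498 and 1456 in HSC Zfx-cko and 648 and 615 in HSC Zfx-flox and rose by 1.21 ± 0.17 (0.00054). Lcp2, the adaptor SLP-76, rose by 1.13 ± 0.33 (adjusted p = 0.0233, between 0.0786 and 0.106 without any 1 HSC array). Syk, the kinase that docks on the gamma chain, was chosen after its values were seen and rose by 1.07 ± 0.14 on probe set 1418261_at (0.000292), by 0.67 on 1418262_at (0.0198), and gave 0.33 on 1457239_at (0.490). Fgr, a Src-family kinase, was the gene that fell, with 12.4 and 15.6 in HSC Zfx-cko and 57.3 and 49.6 in HSC Zfx-flox, by a log2 change of -1.26 ± 0.24 (0.00265). Both Zfx-cko values lay below the filter signal of 25.4, so it was tested only through its Zfx-flox values. Its other tested probe set gave 0.13, and with probe sets of a gene averaged the call was lost (0.0651). Pik3r1 (0.14, adjusted p = 0.391) and Inpp5d (-0.11, adjusted p = 0.396) did not pass.

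Of 13 tested cytokine and surface receptors of mast cells and basophils, 7 were higher (5 to 9 over the alternatives), 1 was lower and 5 did not pass, with a median of 0.85. Csf2ra, the GM-CSF receptor alpha chain, had 99.9 and 94.4 in HSC Zfx-cko and 24.7 and 11.5 in HSC Zfx-flox, a log2 change of 1.81 ± 0.30 (limma adjusted p = 0.00128) on 1420704_at. Both Zfx-flox values lay below the filter signal of 25.4, so this probe set was tested only through its Zfx-cko values. Its other probe set, 1420703_at, gave 0.85 ± 0.17 (0.00428). Crlf2, the TSLP receptor chain, had 1004 and 841 in HSC Zfx-cko and 327 and 388 in HSC Zfx-flox, a change of 1.33 ± 0.11 (2.79e-05). Il18rap, the accessory chain of the IL-18 receptor, changed by 1.60 ± 0.30 (0.0028) on 1 probe set and by -0.16 on its other. Enpp3, a surface ectoenzyme known as a human basophil activation marker (CD203c), was the receptor-list gene that fell. It had 33.4 and 26.9 in HSC Zfx-cko and 172 and 162 in HSC Zfx-flox, a change of -2.03 ± 0.12 (3.94e-06). Its other tested probe sets gave -1.25 (0.000348) and 0.20 (0.755), and with probe sets of a gene averaged the change was -0.85. The probe set with -1.25, 1427302_at, read 16.0 and 12.3 in HSC Zfx-cko and 42.3 and 66.3 in HSC Zfx-flox. Its Zfx-cko values lay below the filter signal, so it was tested only through its Zfx-flox values. Itgb7 (0.85, adjusted p = 0.143) and Siglecf (0.54, adjusted p = 0.084) did not pass.

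The granule list had the lowest median of the 6. Of 13 tested granule proteases and proteins, 2 were higher (1 to 4 over the alternatives), 1 was lower (1 to 2) and 10 did not pass, with a median of 0.18. Serpinb1a, an inhibitor of granule serine proteases, had 3156 and 3164 in HSC Zfx-cko and 1165 and 1067 in HSC Zfx-flox, a change of 1.49 ± 0.18 (limma adjusted p = 0.000197). Ctsg, cathepsin G, had 5465 and 5669 in HSC Zfx-cko and 3838 and 3945 in HSC Zfx-flox, a change of 0.52 ± 0.10 (0.00265, and 0.0581 with no pseudocount). Ndst2, the sulfotransferase needed for mast cell heparin, had a change of -0.88 ± 0.14 (0.00119), with 130 and 112 in HSC Zfx-cko and 249 and 220 in HSC Zfx-flox. Srgn, the granule proteoglycan core (0.17, adjusted p = 0.149), and Prtn3 (0.18, adjusted p = 0.639) did not pass. Gzmb and Mcpt8 lie on chromosome 14 within a run of 15 protease genes from Cma1 to Gzmb in RefSeq order, with 7 coding genes between them. Of those 15, 13 had a probe set and 4 were tested in HSC (Cma1, Mcpt8, Ctsg and Gzmb), and Ctsg alone passed.

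Of 8 tested genes for histamine, serotonin and eicosanoids, 3 were higher and 5 did not pass, with a median of 0.19. Slc18a2, the vesicle transporter that loads histamine and serotonin, had 414 and 398 in HSC Zfx-cko and 120 and 125 in HSC Zfx-flox, a change of 1.62 ± 0.17 (limma adjusted p = 9.73e-05). Alox5ap, the partner protein of 5-lipoxygenase, had 6226 and 6655 in HSC Zfx-cko and 2996 and 3074 in HSC Zfx-flox, a change of 1.08 ± 0.07 (5.4e-06). The lipoxygenase Alox5 (-0.06, adjusted p = 0.797) and the histamine-degrading Hnmt (0.57, adjusted p = 0.096) did not pass. Pla2g4a, which frees arachidonic acid, rose by 0.28 ± 0.08 (0.01995, between 0.0683 and 0.107 without any 1 HSC array). Among 6 tested cytokines 4 were higher and 2 did not pass, with a median of 1.01. Ccl3, a chemokine, had 412 and 424 in HSC Zfx-cko and 64.8 and 48.6 in HSC Zfx-flox, a change of 2.62 ± 0.21 (2.09e-05). Ccl4, Ccl9 and Il6 rose by 1.73 ± 0.22, 0.89 ± 0.16 and 1.13 ± 0.30, and Ccl9 gave 0.33 (0.308) on its other probe set. Il6 did not pass without HSC Zfx-cko replicate 2 (0.116) or HSC Zfx-flox replicate 2 (0.0804), with the pseudocount at the 10th percentile (0.0843) or with no pseudocount (0.409). Osm (0.19, adjusted p = 0.413) and Il4 (0.19, adjusted p = 0.650) did not pass.

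Over all tested genes 26.8% had a higher and 23.2% a lower probe set in HSC Zfx-cko, so calls both ways were common. Of 21 tested transcription factors of these lineages 8 were higher, 5 were lower and 8 did not pass, with a median of 0.30. Over the alternatives 7 to 10 were higher and 2 to 8 lower, with 3 lower without HSC Zfx-cko replicate 1 or HSC Zfx-flox replicate 1 and 2 without HSC Zfx-flox replicate 2. Gata1, a factor of erythroid cells, megakaryocytes, mast cells and eosinophils, read 536 and 562 in HSC Zfx-cko and 1754 and 1738 in HSC Zfx-flox, a change of -1.64 ± 0.25 (limma adjusted p = 0.000787). Meis1 read 3181 and 3305 in HSC Zfx-cko and 579 and 611 in HSC Zfx-flox, a change of 2.42 ± 0.10 (1.02e-06). Its other probe sets gave 1.68 and 1.10. Meis1 and Gata2 are also on the list of hematopoietic stem cell markers read below. Id2 rose by 1.79 ± 0.14, and by 0.92 on its other tested probe set. Runx1 rose by 1.53 ± 0.12 on 1440878_at, with 1.499 and 1.48 on another pair of probe sets that passed. Its 3 other probe sets did not pass, with 1.30 (adjusted p = 0.0869), 0.67 (0.0737) and -0.66 (0.0607), and with probe sets averaged the change was 0.97. Lmo2 (0.30, adjusted p = 0.384) and Irf8 (0.68, adjusted p = 0.0839) did not pass. Gata2 and Mitf, both needed for mast cells, were chosen after their values were seen. Gata2 probe set 1450333_a_at had 1672 and 1818 in HSC Zfx-cko and 859 and 933 in HSC Zfx-flox, a change of 0.95 ± 0.09 (3.96e-05), while its other probe set changed by 0.47 (adjusted p = 0.223). Mitf had 325 and 330 in HSC Zfx-cko and 157 and 138 in HSC Zfx-flox, a change of 1.08 ± 0.14 (0.000259).

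**Figure D3:**
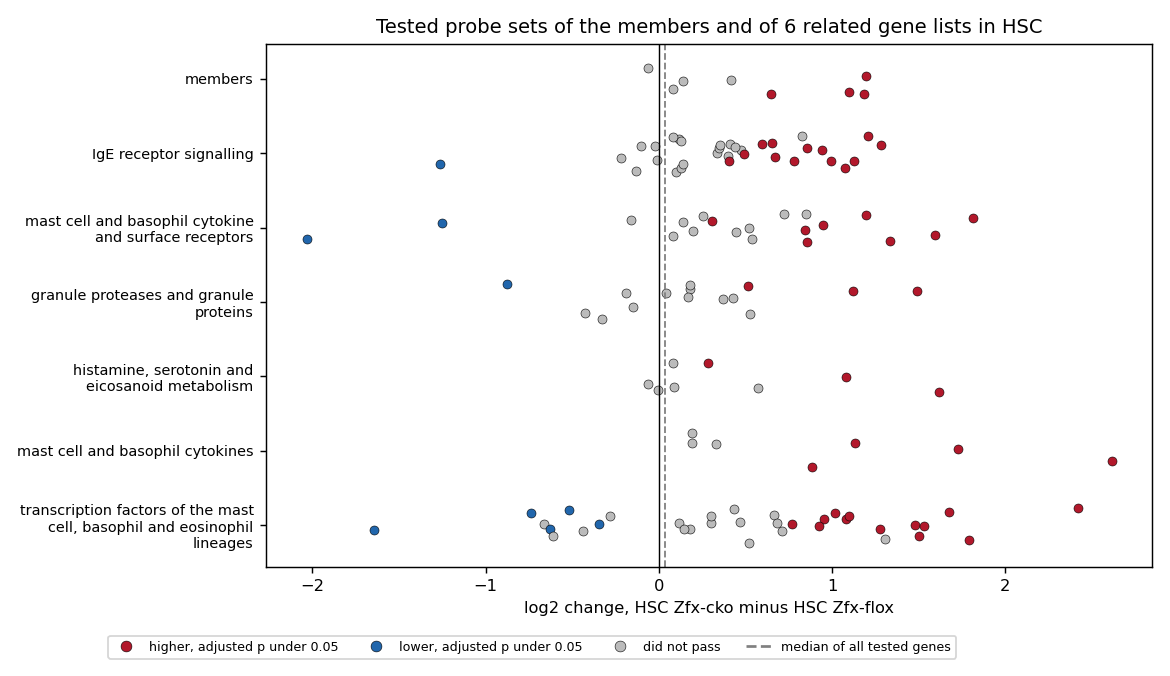
Fitted log2 change in HSC (Zfx-cko minus Zfx-flox) of the tested probe sets of the members and of 6 related lists, 1 point a probe set, red or blue where higher or lower with an adjusted p under 0.05. Most colored points of the cytokine and IgE signalling lists lie right of the dashed line at 0.03, the median of all tested genes, while those of the transcription factors lie on both sides.

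Markers of whole cell types were read beside the members, with 26.8% of all tested genes higher and 23.2% lower by at least 1 probe set. Of the 5 tested mast cell markers, Slc18a2 alone was higher. The tryptases Tpsb2 (-0.19, adjusted p = 0.673) and Tpsab1 (0.04, adjusted p = 0.919), the chymase Cma1 (0.37, adjusted p = 0.507) and the prostaglandin D synthase Hpgds (0.00, adjusted p = 0.995) did not pass, and Mrgprb1 was below the pseudocount on every HSC array. The summed mast cell markers were 676 and 593 in HSC Zfx-cko and 339 and 303 in HSC Zfx-flox. Slc18a2 carried most of that gap, since the other mast cell markers summed to 261 and 195 in HSC Zfx-cko and 219 and 178 in HSC Zfx-flox, which overlap. Of 5 basophil markers 1 was higher (Csf2rb2, 1.19) and 1 lower (Enpp3), with sums of 988 and 916 in HSC Zfx-cko and 750 and 718 in HSC Zfx-flox and Cd200r3 below the pseudocount. Without Csf2rb2 the basophil sums were 469 and 415 in HSC Zfx-cko and 555 and 481 in HSC Zfx-flox. These sums still held Enpp3, the marker that fell, with 33.4 and 26.9 in HSC Zfx-cko and 172 and 162 in HSC Zfx-flox. No sum was taken without both, so they give no direction for the other basophil markers. Neither of the 2 tested eosinophil markers passed, with sums of 199 and 166 in HSC Zfx-cko and 120 and 124 in HSC Zfx-flox and Alox15, Ccr3 and Prg3 below the pseudocount. No marker of any list was at exactly 0.

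Markers of other lineages were read in the same comparison, beside the same shares of 26.8% higher and 23.2% lower over all tested genes. Erythroid markers were lower in 5 of 5, with sums of 9406 and 9660 in HSC Zfx-cko and 24282 and 24807 in HSC Zfx-flox. Hematopoietic stem cell markers were higher in 9 of 10, with sums of 16848 and 17216 in HSC Zfx-cko and 5578 and 5909 in HSC Zfx-flox. Marker lists share genes with the related lists above, so their counts are not separate observations. Meis1, Gata2 and Kit are shared by the stem cell markers, Itga2b by the megakaryocyte markers, and Ctsg and Prtn3 by the neutrophil and monocyte markers, among others. Of the gate's own markers, Kit (1452514_a_at) read 1462 and 1390 in HSC Zfx-cko and 1122 and 1174 in HSC Zfx-flox, a change of 0.31 (limma adjusted p = 0.0226). Its other probe set, 1415900_a_at, read 37.0 and 29.5 in HSC Zfx-cko and 17.8 and 43.4 in HSC Zfx-flox, which overlap (0.14, adjusted p = 0.717). Ly6a, which encodes Sca-1, was not analysed here. Megakaryocyte markers were higher in 5 of 6, with sums of 4254 and 4248 in HSC Zfx-cko and 1359 and 1256 in HSC Zfx-flox. Neutrophil and monocyte markers were higher in 3 of 11 (7 in the fit of the HSC arrays alone), with sums of 21141 and 20423 in HSC Zfx-cko and 16056 and 15952 in HSC Zfx-flox, and Camp and Itgam were below the pseudocount. Of 5 cytotoxic T and NK markers only Nkg7 was higher, and in 0 to 1 of 5 over the alternatives, with 0 when any 1 HSC array was left out. Their sums were 3118 and 3252 in HSC Zfx-cko and 1387 and 1336 in HSC Zfx-flox, or 343 and 259 in HSC Zfx-cko and 256 and 215 in HSC Zfx-flox without Nkg7, and Cd3e and Cd3g were below the pseudocount. B cell markers were higher in 3 of 4 (1 when any 1 HSC array was left out), with sums of 549 and 493 in HSC Zfx-cko and 209 and 197 in HSC Zfx-flox, and plasmacytoid dendritic markers in 2 of 5, with sums of 4524 and 4604 in HSC Zfx-cko and 2882 and 3104 in HSC Zfx-flox. The log2 ratio of 5′ to 3′ Gapdh signal, a sign of RNA length, was -4.68 and -4.39 in HSC Zfx-cko and -4.18 and -4.25 in HSC Zfx-flox. For Actb it was -3.60 and -3.44 in HSC Zfx-cko and -3.46 and -3.30 in HSC Zfx-flox, which overlap. In ESC the Gapdh ratio was 0.41 and 0.38 in Zfx-null and 0.44 and 0.38 in Zfx-flox, so 5′ signal was far lower on every HSC array. The part of the marker and RNA length differences between the HSC groups in the members' changes was not tested.

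**Figure D4:**
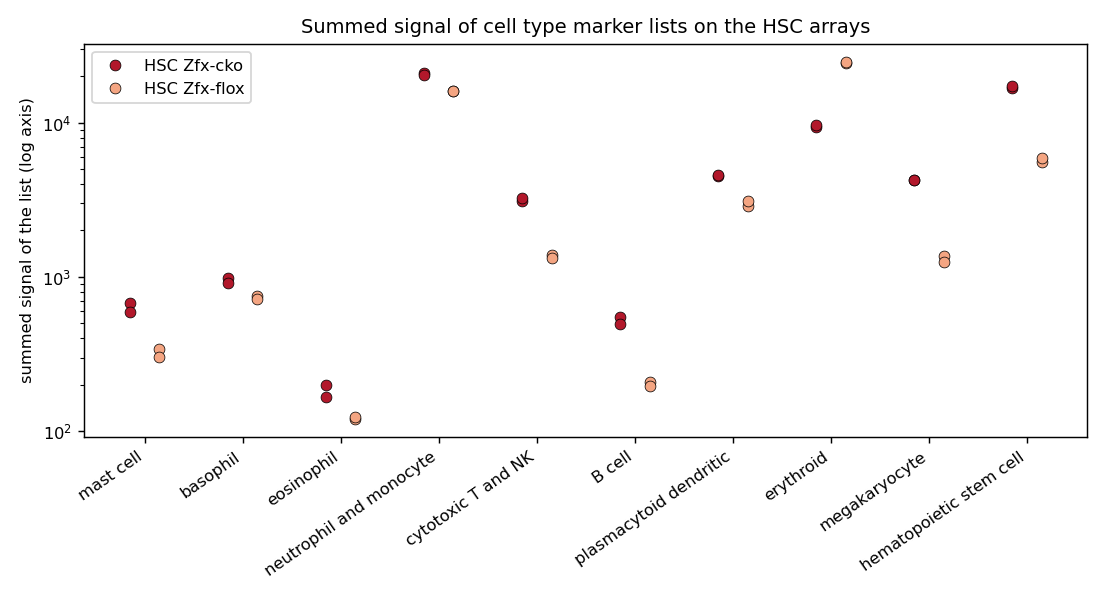
Summed signal of each cell type's markers on the 4 HSC arrays (log axis), with HSC Zfx-cko left of HSC Zfx-flox. Erythroid markers are lower in HSC Zfx-cko, and stem cell and megakaryocyte markers are higher. Slc18a2 carries most of the higher mast cell sum, and the basophil sum holds Csf2rb2, which rose, and Enpp3, which fell.

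Across the 8 arrays, each member had a gene whose log2 profile was most like its own. By Pearson's r over 8 arrays it was Tmem71 for Fcer1a (0.9997), Zranb1 for Ms4a2 (0.9985), Atp8b4 for Cpa3 (0.9983) and Zfp871 for Hdc (0.9993). It was Ccdc69 for Gzmb (0.9977), Gab2 for Mcpt8 (0.9946) and Camk2a for Prg2 (0.9781). The points share the contrast of cell type and amplification, which sets most of each r, and these values are a description only.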

How the data were processed

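Affymetrix Mouse Genome 430 2.0 arrays were read for 4 groups of 2. The authors deposited linear intensities per probe set from GCOS 1.4 (named in the submitters' processing notes), with summarisation settings not given in the sources used here. The deposited scaling was kept, since the mean without the highest and lowest 2% of probe sets was 250 on each array. Labels placed each column with its sample, and 0 columns were left over. The 64 control probe sets were left out. Names came from the platform annotation: 34945 probe sets had 1 symbol, 932 several and 9160 none, and only the first kind was named. Of these, 34741 matched the RefSeq table.

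Values were taken as log2(signal + 14.2), 14.2 being the 25th percentile of all values. All 8 arrays entered 1 linear model of the group means (limma 3.58.1, R 4.3.3, moderated by eBayes with a trend on mean signal and 4 residual degrees of freedom), with Benjamini-Hochberg adjustment per comparison and a threshold of 0.05. A probe set was tested in a cell type when its mean there reached the 40th percentile, which kept 27022. A gene on a list counted as higher or lower by any probe set past the threshold. Arrays give no counts, so their number limits the precision, and 2 against 2 arrays allow no exact permutation p below 0.333.

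Named genes were the 7 members, Zfx, and from each list at most 4 called genes of largest change plus at most 2 uncalled genes of highest HSC mean. Each member's most similar gene by Pearson's r was named too. Marker genes came from fixed lists, and Syk, Gata2 and Mitf were exceptions. The members and lists were chosen with earlier results of these data known. Alternatives changed the pseudocount, scaling, filter, probe set choice, arrays fitted, variance trend, replicate block or left out 1 array. Same-numbered arrays deviated together with r = 0.0716 in HSC and 0.319 in ESC, over 2 pairs each, so the numbers were not taken as pairs. The fit was tested on simulated data.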

Additional observations from a re-analysis of the deposited data

Results flagged for a closer look

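For 2 members the ESC arrays moved opposite to the HSC arrays without overlap. The HSC effect (Zfx-cko minus Zfx-flox) less the ESC effect (Zfx-null minus Zfx-flox) was 1.23 for Fcer1a and 1.17 for Hdc 1454713_s_at on the log2 scale. This difference was not tested, and all 8 ESC values of these probe sets lay near or below the pseudocount.

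Among the named genes of the lists, 22 were tested in both cell types, and for 17 the HSC effect differed from the ESC effect by limma's test of the difference, with adjusted p between 1.26e-05 and 0.0338. The difference was above 0 for 12: Meis1 2.12, Itgb7 2.07, Csf2ra 2.01, Srgn 1.88, Plcg2 1.85, Ccl4 1.70, Alox5ap 1.60, Il18rap 1.39, Crlf2 1.34, Id2 0.99, Inpp5d 0.90 and Runx1 0.80. It was below 0 for 5: Gata1 -2.06, Fgr -1.24, Ndst2 -1.05, Pla2g4a -1.01 and Enpp3 -0.88. Of these genes, Fgr and Csf2ra passed the HSC filter only through the HSC group where they were high. Over all genes tested in both, 21.8% had a difference above and 20.8% below 0 past the threshold. The called genes of each list were named for a large HSC change, and that change enters this difference. A high count among the named genes was thus partly built in, and it cannot be read against these shares. Groups of 2 arrays were too small for a test of outlying arrays.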

How the results depend on the processing

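Beside the main result of 4 higher member genes in HSC, 2 were called with the pseudocount at the 10th percentile and 1 with none, and 1 to 4 with 1 array left out (2 without HSC Zfx-cko replicate 1 and 1 without any other HSC array). With the HSC arrays fitted alone 5 were called, Mcpt8 among them. Without a filter on low values, or with the filter at the 60th percentile, 3 were called. Fcer1a was the member called throughout, with log2 changes of 0.95 to 1.29. In ESC 0 members were called, and 1 (Mcpt8) with no filter on low values, with 0 to 1 when an array was left out, the 1 being without ESC Zfx-flox replicate 1. With 1 probe set per gene, 2852 were higher and 2493 lower in HSC, and 2003 and 1905 in ESC. With probe sets of a gene averaged, 2432 and 2062 were called in HSC, and 1564 and 1790 in ESC. These settings test fewer features. Leaving out 1 array gave 2003 to 3213 lower probe sets in ESC (2003 without ESC Zfx-flox replicate 1), against 3434. In HSC it gave 4055 to 5996 higher ones, against 5860.

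The Ms4a2 changes changed sign. Probe set 1443264_at gave -0.015 with quantile normalization within cell types, -0.013 over all arrays and -0.015 with median centring. Probe set 1421475_at gave -0.26 to 0.13 with 1 array left out, and was above 0 without HSC Zfx-cko replicate 2 (0.066) or HSC Zfx-flox replicate 2 (0.13). Inpp5d gave 0.012 with probe sets averaged, and Alox5 gave -0.24 to 0.11 with 1 array left out (0.11 without HSC Zfx-cko replicate 2). None of these passed the threshold, and the cause was not tested. Over 42 named probe sets, 765 of 827 alternative values kept their direction and their side of the threshold.

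With the replicate number as a block, 6620 probe sets were higher and 4937 lower in HSC, and 3905 and 4345 in ESC, and the same 4 members were called.

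The depth of these results is limited by 2 arrays a group and by signals near the floor. Dim probe sets such as Prg2 rest on values close to the filter.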
